A study of Mus musculus with 20 samples.

Results

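The proteasome genes were read in mouse liver as all array probes whose platform symbol is Psma, Psmb, Psmc, Psmd or Psme followed by a number. The rule found 76 of the 45281 probes on the array, for 43 of the 19057 genes that the array names. Of these, 59 probes for 36 genes were detected above background (detection p under 0.05) in at least 5 of the 20 arrays and entered the tests, among 15096 probes in all. The kept genes were 11 of the 20S core, 8 of the 19S base, 7 of the 19S lid, 5 of the immunoproteasome with its activator, 3 chaperones of base assembly and 2 other activators. Where a gene had several kept probes, the probe of highest mean over the 20 arrays stood for it in the class summaries. Psma1, Psma3, Psma6, Psma8, Psmb11, Psmd2 and Psmd3 had no kept probe. Of the 17 probes that were not kept, 16 were detected on 0 arrays and a Psma8 probe on 1, so these arrays gave no level for those genes. Psma8 and Psmb11 are the testis and thymus subunits, whereas the other 5 genes encode subunits found in nearly all cells.

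The livers came from 20 female mice on the B6 background, 5 in each of 4 groups, and total RNA of each liver was hybridised to an array of its own. The wild-type group was untreated B6 mice aged 215 to 217 days. All other mice carried the kd/kd missense mutation of Pdss2, which encodes a subunit of the enzyme that makes the isoprenoid tail of coenzyme Q. They were untreated (129 to 143 days), given probucol in the diet at about 95 mg/kg/day (140 to 145 days), or given coenzyme Q10 (CoQ10) at about 400 mg/kg/day (153 to 156 days). The mutation was in every cell, the tissue was whole liver, and fewer cells of a type cannot be told apart from less RNA per cell. Age went with genotype, and to a lesser degree with CoQ10, so age and group cannot be told apart. For the 10 livers of the untreated and probucol groups the treatment field and the prefix of the array name named opposite treatments. The treatment field was followed, and every statement on those groups holds for livers as that field labels them. Urine albumin recorded for the same mice was 13.52 to 57.34 mg per 24 h in the livers labelled untreated and 0.84 to 1.86 mg per 24 h in those labelled probucol.

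The proteasome degrades proteins tagged with ubiquitin. Its 20S core is a barrel of alpha and beta rings, in which Psmb6, Psmb7 and Psmb5 carry the caspase-like, trypsin-like and chymotrypsin-like sites. The 19S cap has a base of ATPases (Psmc genes) that unfold substrates and a lid that removes ubiquitin. Under interferon, Psmb9, Psmb10 and Psmb8 take the place of Psmb6, Psmb7 and Psmb5 to form the immunoproteasome, which cuts peptides for MHC class I, and Psme1 with Psme2 form its activator PA28. When proteasome activity is short, the transcription factor encoded by Nfe2l1 raises the subunit genes together through antioxidant response elements in their promoters.

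RefSeq promoter windows (GRCm38.p6, 250 bases before to 50 after the start) were matched for 36 of the 43 genes. The 7 without a window were Psma8, Psmb1, Psmb2, Psmb7, Psmc3, Psmd3 and Psmd7, so the catalytic subunit Psmb7 was not scanned. These 36 genes are not the same set as the 36 genes with a kept probe. The windows of 2 catalytic core subunits that hold an antioxidant response element core are shown, with that of Psmb9, the interferon counterpart of Psmb6, for comparison. They lie at chr14:54617946-54618245, minus strand, at chr11:70525107-70525406, plus strand, and at chr17:34187281-34187580, minus strand. Each is written 5′ to 3′ along the gene. Capitals mark TGACNNNGC, the antioxidant response element core, in Psmb5 and Psmb6, and the reverse complement of CCAAT in Psmb9.
Psmb5: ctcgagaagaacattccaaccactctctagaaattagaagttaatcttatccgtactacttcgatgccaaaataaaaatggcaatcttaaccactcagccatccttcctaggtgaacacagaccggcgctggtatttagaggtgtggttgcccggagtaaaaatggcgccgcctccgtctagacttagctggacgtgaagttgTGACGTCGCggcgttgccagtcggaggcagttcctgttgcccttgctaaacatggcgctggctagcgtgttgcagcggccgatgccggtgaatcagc
Psmb6: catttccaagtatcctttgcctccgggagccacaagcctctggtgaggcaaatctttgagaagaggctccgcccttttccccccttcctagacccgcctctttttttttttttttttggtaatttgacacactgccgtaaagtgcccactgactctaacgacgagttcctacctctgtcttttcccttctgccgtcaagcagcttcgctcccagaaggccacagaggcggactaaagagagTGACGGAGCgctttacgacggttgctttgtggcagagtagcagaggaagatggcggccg
Psmb9: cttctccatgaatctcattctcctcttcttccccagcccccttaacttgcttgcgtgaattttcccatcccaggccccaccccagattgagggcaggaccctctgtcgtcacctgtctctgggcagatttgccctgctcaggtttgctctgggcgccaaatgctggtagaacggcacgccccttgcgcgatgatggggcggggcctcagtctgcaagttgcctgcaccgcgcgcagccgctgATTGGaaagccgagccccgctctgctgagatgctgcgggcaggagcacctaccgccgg
On either strand, TGACNNNGC was in the windows of 6 of the 36 genes (16.7%, namely Psmb5, Psmb6, Psmc6, Psmd9, Psmd12 and Psme4), against 14.0% of 27025 genes. CCAAT was in 14 of 36 (38.9%) against 41.1%, and the interferon-stimulated response core GAAANNGAA was in 6 of 36 (16.7%) against 9.76%. Of the 5 immunoproteasome genes only Psme1 held GAAANNGAA in this window. These matches are descriptions of the windows, not of factor binding.

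All log2 values below are background-corrected, quantile-normalised intensities, and a log2 difference of 1 is a doubling. Between 12268 and 15003 probes were detected per array, and the number of arrays limits the precision. The first principal component of the kept probes (24.2% of variance) went with a number from 1 to 4 in the array names, which the labels do not explain and which every group spans. Hepatocyte markers (5 of 5 kept) had median log2 differences between -0.01 and 0.01 in the 6 comparisons; 4 of 9 lymphocyte and leukocyte markers on the array were kept. Nothing in the labels tells whether mice of a group shared a litter.

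No proteasome probe passed an adjusted p of 0.05 in any of the 6 pairwise comparisons or in the test across the 4 groups (limma, Benjamini-Hochberg over the 15096 probes, 0 of 59 in each). Adjusted p-values of the members were at least 0.813 for untreated mutants against wild type, where 0.119% of all probes were called. They were at least 0.782 for probucol against untreated mutants (0.0132% called), 0.454 for CoQ10 against untreated mutants (0.119% called) and 0.293 for probucol mutants against wild type (0.709% called). For CoQ10 mutants against wild type the lowest was 0.117 (0.437% called), for probucol against CoQ10 mutants 0.378 (0.0464% called) and for the 4-group F test 0.257 (0.53% called). These calls are rare on this array, so a count of 0 in 59 probes is near the background. At an unadjusted p under 0.05, 1 of 59 members passed in untreated mutants against wild type (1.69%, against 5.5% of all probes) and 1 in probucol against untreated mutants (1.69% against 6.1%). The counts were 4 for CoQ10 against untreated mutants (6.78% against 9.39%) and 4 for probucol mutants against wild type (6.78% against 12.3%). In CoQ10 mutants against wild type 9 passed, 7 of them higher (15.3% against 13.3%), in probucol against CoQ10 mutants 2 (3.39% against 9.95%), and in the F test 4 (6.78% against 13.1%). Each share of members was below that of all probes except in CoQ10 mutants against wild type, where it was near it (15.3% against 13.3%). The livers of the 2 groups did not overlap for 6 of 59 members there (10.2%, against 4.61% of all probes), each of them higher with CoQ10. The other 5 comparisons had 0 such members, against backgrounds of 1.56% for untreated mutants and 3.13% for probucol mutants versus wild type, 0.908% for probucol and 1.68% for CoQ10 versus untreated mutants, and 1.52% for probucol versus CoQ10 mutants.

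Core subunits lay higher in mutant than in wild-type livers, base subunits lower, and lid subunits on both sides. Over the 11 core genes the median log2 difference from wild type was 0.13 in untreated, 0.23 in probucol and 0.22 in CoQ10 mutants, with 10 of 11 genes higher each time and Psma4 the exception. With single livers left out these medians ran from 0.06 to 0.19, from 0.17 to 0.27 and from 0.19 to 0.28. The untreated one was 0.06 without untreated mutant 4 and 0.07 without untreated mutant 1. The median over all kept probes lay between -0.010 and 0.004 in the 6 comparisons. The 8 base genes had medians of -0.06, -0.11 and -0.10 in the same order, with 7, 7 and 8 of 8 lower. With the arrays scaled to a common median in place of quantile normalisation, 4, 3 and 8 of the 8 base genes were lower. That scaling shifts the median of all probes by at most 0.08, and relative to this shift the base medians were -0.02, -0.04 and -0.06. Without untreated mutant 2 the base median of untreated mutants was -0.10, and without probucol mutant 3 that of probucol mutants was -0.05. The lid medians were 0.01, 0.01 and -0.04, with 4, 4 and 3 of 7 genes higher. Among the mutants, the core medians were 0.06 for probucol and 0.09 for CoQ10 against untreated mutants and 0.01 for probucol against CoQ10. With single livers left out these ran from 0.02 (without probucol mutant 4) to 0.16 (without probucol mutant 5), from 0.04 (without untreated mutant 3) to 0.16 (without CoQ10 mutant 5) and from -0.05 (without probucol mutant 4) to 0.06 (without probucol mutant 5). With groups taken from the array name prefix, the core median of probucol against untreated mutants was -0.06. The 3 comparisons with wild type share the same 5 control livers. These medians are descriptions with no test, and 0 of their genes passed the adjusted test.

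**Figure D1:**
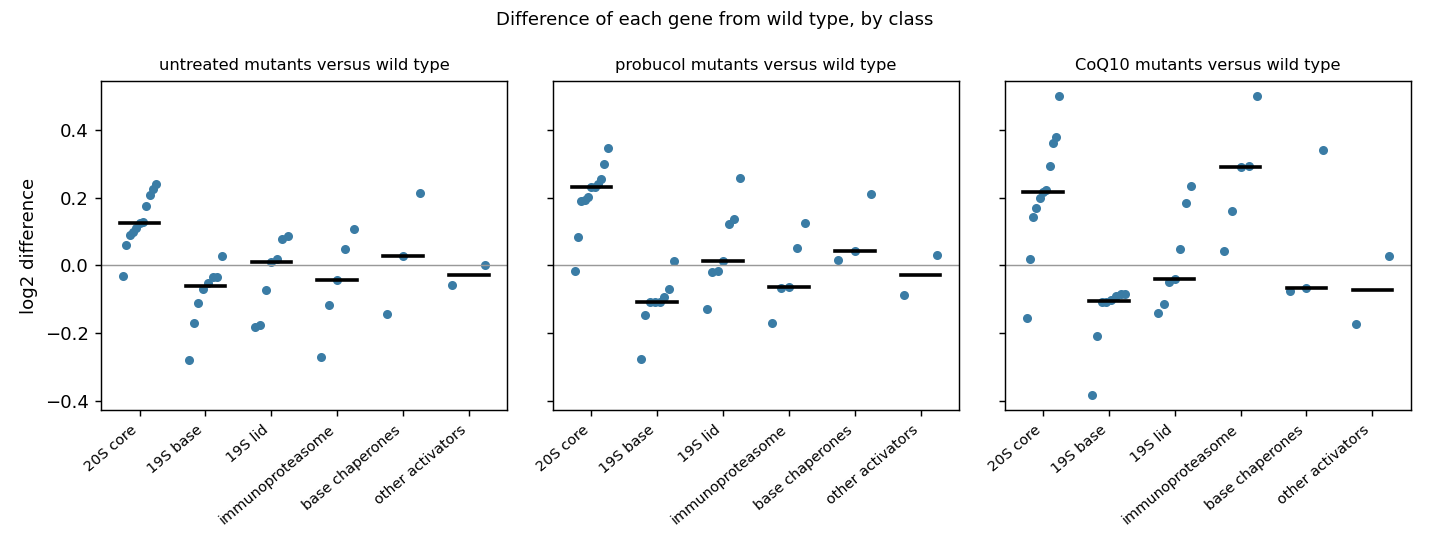
Log2 difference from wild type of each kept proteasome gene (points, brightest probe) in untreated, probucol and CoQ10 mutants, by class, with the class median as a bar. Core genes sit above 0 except Psma4, and 7, 7 and 8 of the 8 base genes sit below 0, with medians of -0.06, -0.11 and -0.10.

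The core genes divided the livers within each mutant group, while no wild-type liver had most core genes high. In untreated mutants 1 and 4, 10 of 11 core genes were above their 20-liver median, against 1, 1 and 2 in untreated mutants 2, 3 and 5. Probucol mutants 1, 3 and 4 had 10, 9 and 11 such genes and probucol mutants 2 and 5 had 4 and 1. CoQ10 mutants 1 to 4 had 9, 10, 9 and 10, and CoQ10 mutant 5 had 4. The wild-type livers had 3, 0, 1, 4 and 1. So 9 of the 15 mutant livers had nearly all core genes high and the other 6 lay within the wild-type range of 0 to 4. The mean deviation of the core from the 20-liver gene means was -0.14 ± 0.05 log2 (SD, n = 5) in wild type, -0.01 ± 0.20 in untreated, 0.07 ± 0.18 in probucol and 0.08 ± 0.09 in CoQ10 livers. The untreated livers alone ran from -0.23 to 0.23 and the probucol livers from -0.15 to 0.26, which overlaps every other group.

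**Figure D2:**
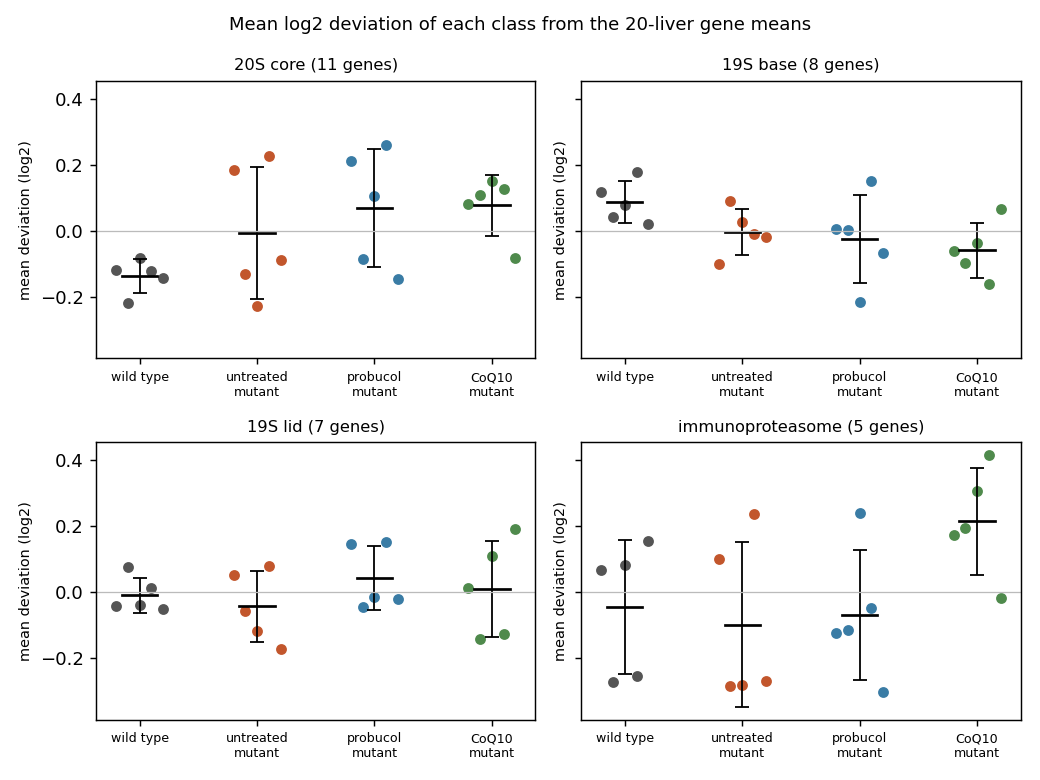
Mean log2 deviation from the 20-liver gene means for each class, 1 point per liver, with the group mean and SD (bars), groups as the treatment field labels them. The wild-type core points lie between -0.22 and -0.08, and the untreated core points split into 2 livers near 0.2 and 3 livers below -0.08.

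Most of these livers also lay high on the second principal component of all kept probes (12.8% of variance). There untreated mutants 1 and 4 were at 14.9 and 12.7, and the other 3 untreated livers between -17.3 and -7.1. Probucol mutants 1, 3 and 4 were at 17.9, 12.2 and 23.2, probucol mutants 2 and 5 at 4.6 and -9.8, CoQ10 mutants 1 to 5 at 1.7, 6.4, 16.9, 9.9 and 7.0, and wild type between -23.0 and -10.6. CoQ10 mutant 1, with 9 core genes high, was thus below probucol mutant 2 and CoQ10 mutant 5, with 4 each. Without untreated mutants 1 and 4 the core median of untreated mutants against wild type was -0.02 in place of 0.13. These were the 2 untreated livers with 10 of 11 core genes high, so a lower median follows from the choice of livers. Without probucol mutants 1, 2 and 4, which an earlier look at an acute phase gene had set apart, the core median of probucol mutants against wild type was 0.14. That choice drops probucol mutant 2, with 4 core genes high, and keeps probucol mutant 3, with 9. The untreated and probucol values are therefore not alike. Within array numbers, with 1 or 2 livers a side, the core median ranged from -0.05 to 0.39 for untreated, from 0.01 to 0.41 for probucol and from 0.17 to 0.30 for CoQ10 mutants against wild type. The CoQ10 and probucol differences of the core were therefore above 0 within all 4 numbers, the probucol one by as little as 0.01. The untreated difference was above 0 within 3 of 4.

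Core genes moved together from liver to liver within groups. After removal of the group means, the median Pearson r over the 55 pairs of core genes across 20 livers was 0.64 (Spearman 0.59), from -0.18 to 0.86, whereas the median r of a core gene with all other kept probes was -0.03. The same median was 0.11 over 28 pairs of base genes, 0.11 over 21 pairs of lid genes and -0.03 over 10 pairs of immunoproteasome genes. Between classes it was 0.30 for core with immunoproteasome, 0.12 for core with lid and 0.02 for core with base. All pairs share the arrays and their normalisation, whose part in these correlations was not tested.

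**Figure D3:**
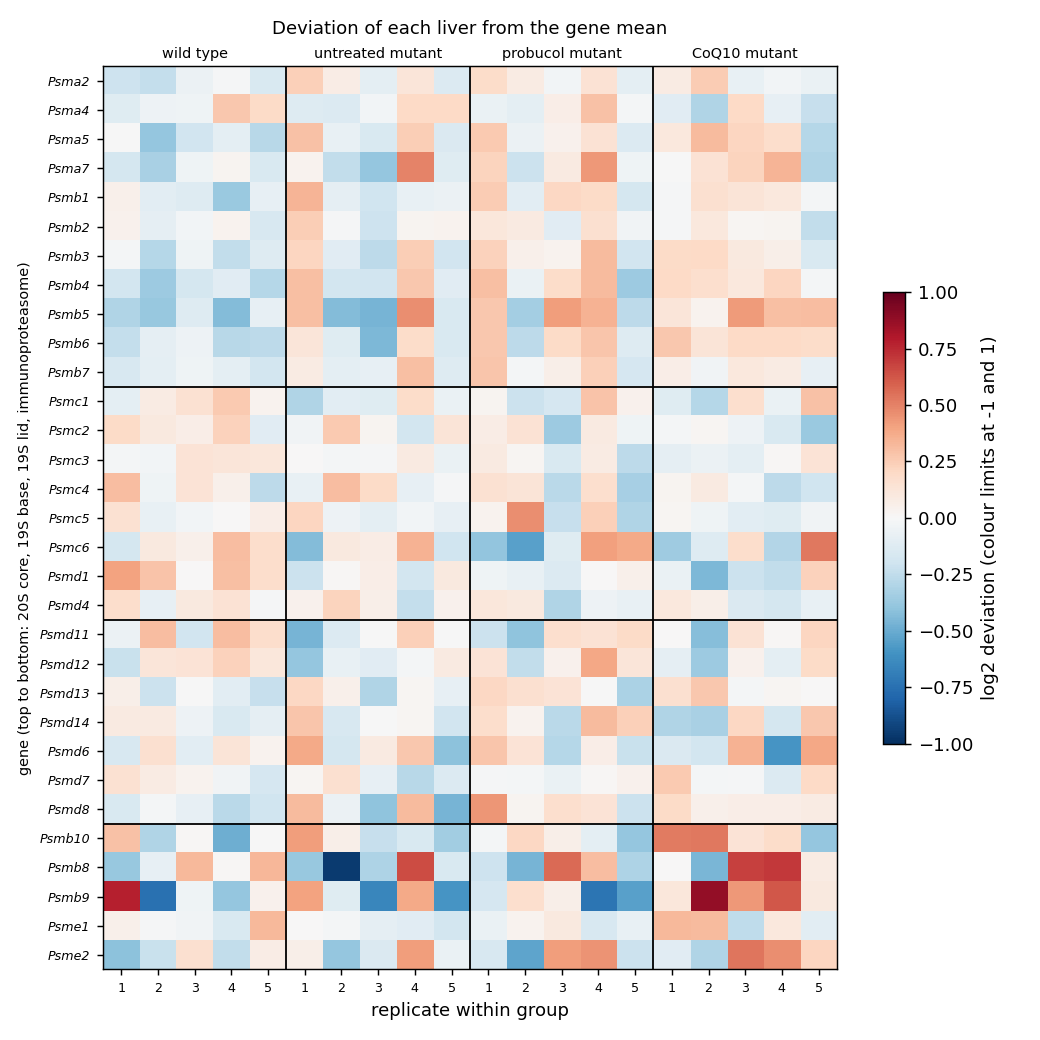
Deviation in log2 intensity of each liver from the gene mean (red above, blue below) for 31 genes of 4 classes, livers in columns by group and replicate. In the core block some columns are mostly red (untreated 1 and 4, probucol 1, 3 and 4, CoQ10 1 to 4) and others mostly blue (such as wild type 2 and untreated 3), and the base and lid blocks are mixed.

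Among catalytic subunits, Psmb5 (the chymotrypsin-like site) and Psmb6 (the caspase-like site) had the clearest separation of CoQ10 mutants from wild type. Psmb5 read 9.56, 9.48, 9.73, 9.43 and 9.78 log2 in wild type, and 9.98, 9.90, 10.29, 10.16 and 10.17 in CoQ10 mutants. It read 10.16, 9.43, 9.40, 10.33 and 9.71 in untreated and 10.13, 9.52, 10.28, 10.21 and 9.60 in probucol mutants. Every CoQ10 liver was above every wild-type liver, and both other mutant groups held livers at either level. The CoQ10 difference from wild type was 0.50 ± 0.18 log2 (SE, 95% interval 0.12 to 0.88, 1.42-fold, limma adjusted p = 0.204). Against untreated mutants it was 0.29 (-0.08 to 0.67).

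Psmb6 has 2 kept probes. The brighter read 12.33, 12.48, 12.52, 12.29 and 12.31 in wild type and 12.84, 12.70, 12.77, 12.77 and 12.75 in CoQ10 mutants. Untreated mutants read 12.69, 12.45, 12.12, 12.75 and 12.42, and probucol mutants 12.84, 12.31, 12.76, 12.85 and 12.44. The CoQ10 livers lay within 0.14 log2 of each other and above all wild-type livers, while the other mutants spanned both. The difference of CoQ10 from wild type was 0.38 ± 0.13 log2 (0.12 to 0.64, adjusted p = 0.168) by this probe and 0.42 ± 0.12 (0.17 to 0.67, adjusted p = 0.117) by the dimmer, whose livers did not overlap either. With array number as a block in the limma fit, the adjusted p was 0.065 and 0.069 for these probes and 0.084 for Psmb5, and 0 of 59 members were called. In that fit 16 members had an unadjusted p under 0.05, which is 27.1% against 18.1% of all probes.

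Psmb7, the trypsin-like site, has 4 kept probes, which did not all give the same sign. Its brightest probe read 12.46, 12.52, 12.58, 12.52 and 12.44 in wild type and 12.69, 12.59, 12.73, 12.70 and 12.54 in CoQ10 mutants. It read 12.70, 12.52, 12.54, 12.92 and 12.49 in untreated and 12.90, 12.60, 12.68, 12.86 and 12.45 in probucol mutants. Groups overlapped throughout, and the CoQ10 difference from wild type was 0.14 ± 0.11 (-0.08 to 0.37). Over the 4 probes that difference ran from 0.02 to 0.21, and probucol against untreated mutants had both signs, from -0.05 to 0.07.

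**Figure D4:**
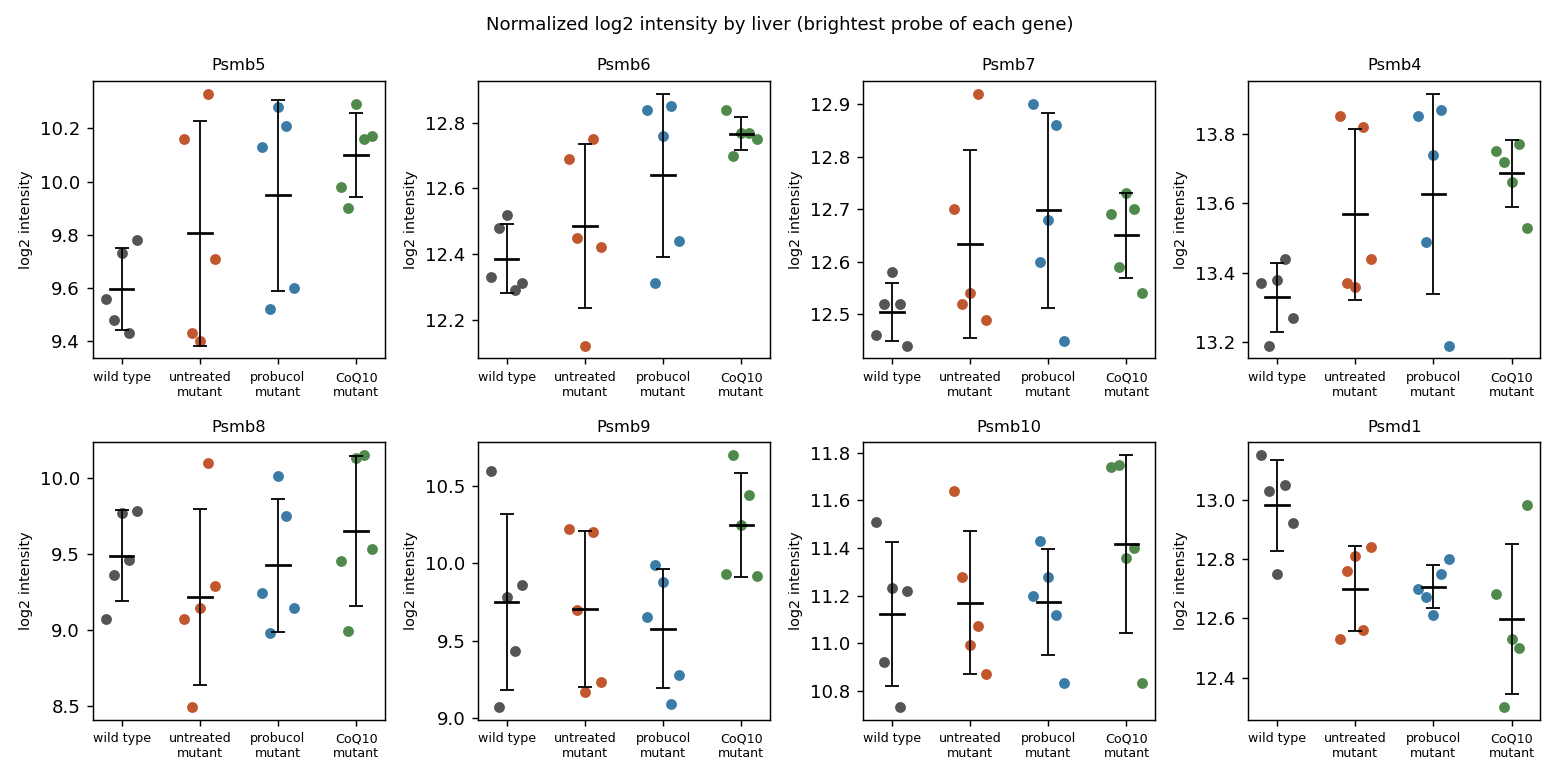
Log2 intensity in each liver (points), with group mean and SD, for the 3 catalytic core subunits, Psmb4, the 3 immunoproteasome subunits and Psmd1. Each panel has its own axis, which does not start at 0. For Psmb5, Psmb6 and Psmb4 the CoQ10 livers lie above all wild-type livers, and for Psmd1 most mutant livers lie below the wild-type mean.

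Other core genes followed the same pattern in smaller steps. Psmb4, a structural beta-ring subunit, read 13.37, 13.19, 13.38, 13.44 and 13.27 in wild type and 13.75, 13.72, 13.66, 13.77 and 13.53 in CoQ10 mutants. It read 13.85, 13.37, 13.36, 13.82 and 13.44 in untreated and 13.85, 13.49, 13.74, 13.87 and 13.19 in probucol mutants. CoQ10 and wild-type livers again did not overlap, and the high untreated livers were replicates 1 and 4. The differences from wild type were 0.36 ± 0.13 with CoQ10 (adjusted p = 0.220), 0.30 ± 0.13 with probucol (adjusted p = 0.365) and 0.24 ± 0.13 untreated (adjusted p = 0.957).

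Psma5, of the alpha ring, read 13.12, 12.74, 12.93, 13.03 and 12.85 in wild type and 13.23, 13.44, 13.34, 13.30 and 12.84 in CoQ10 mutants. It read 13.42, 13.05, 12.97, 13.37 and 12.98 in untreated and 13.39, 13.07, 13.17, 13.27 and 12.99 in probucol mutants. CoQ10 mutant 5 was at the wild-type level, and the CoQ10 difference was 0.30 ± 0.13 (adjusted p = 0.327). Psma2, another alpha-ring subunit, ranged from 13.26 to 13.48 in wild type, 13.36 to 13.73 in untreated, 13.40 to 13.68 in probucol and 13.42 to 13.75 in CoQ10 livers. Psmb3, of the beta ring, ranged from 12.44 to 12.70, 12.46 to 12.97, 12.53 to 13.04 and 12.57 to 12.92 in the same order. Both overlapped between all groups, and their mutant differences from wild type were between 0.13 and 0.23. Psma4 was the core gene that lay below wild type in each mutant group. Its differences were -0.03, -0.02 and -0.15 for untreated, probucol and CoQ10 mutants, with a CoQ10 interval of -0.41 to 0.10. Psmb2 hardly had the pattern either, with 0.06, 0.09 and 0.02 in the same order by its brightest probe. Its CoQ10 livers (12.61 to 12.96) spanned the wild-type range (12.69 to 12.90).

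In the 19S cap, Psmd1, a scaffold subunit of the base, was lower in the mutants. Its brightest probe read 13.15, 13.03, 12.75, 13.05 and 12.92 in wild type and 12.53, 12.76, 12.81, 12.56 and 12.84 in untreated mutants. Probucol mutants read 12.70, 12.67, 12.61, 12.75 and 12.80, and CoQ10 mutants 12.68, 12.30, 12.53, 12.50 and 12.98. The groups overlapped: wild-type livers 3 and 5 lay within the mutant range, and several mutant livers, among them CoQ10 mutant 5, within the wild-type range. The differences from wild type were -0.28 ± 0.12 untreated (-0.53 to -0.03, adjusted p = 0.813), -0.28 ± 0.12 with probucol (-0.53 to -0.03, adjusted p = 0.341) and -0.38 ± 0.12 with CoQ10 (-0.63 to -0.14, adjusted p = 0.143). The 3 Psmd1 probes gave CoQ10 differences of -0.38 to -0.20, but untreated differences of both signs, from -0.28 to 0.11. Among the ATPases and the ubiquitin receptor, Psmc2 (-0.21), Psmd4 (-0.11) and Psmc6 (-0.10) had CoQ10 differences whose intervals include 0. For Psmc2 the dimmer probe gave 0.14, the opposite sign.

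Lid genes had no common direction. Psmd14, the deubiquitinating enzyme, differed from wild type by 0.01 untreated, 0.12 with probucol and -0.04 with CoQ10. Psmd8, another lid subunit, was the lid gene whose CoQ10 livers (11.10 to 11.24) did not overlap wild type (10.78 to 11.03), with a difference of 0.24 (-0.07 to 0.54). Psmd10, which encodes gankyrin, a chaperone of base assembly, read 9.48, 9.46, 9.87, 9.52 and 9.65 in wild type and 10, 10, 9.89, 9.89 and 9.92 in CoQ10 mutants by its brightest probe. It read 9.91, 9.81, 9.58, 10.02 and 9.73 in untreated and 9.91, 9.82, 9.78, 9.81 and 9.74 in probucol mutants. The CoQ10 livers lay above all wild-type livers by a narrow gap, with a difference of 0.34 ± 0.10 (0.13 to 0.56, adjusted p = 0.130), and the 3 Psmd10 probes gave 0.15 to 0.34. The other base chaperones, Psmd5 and Psmd9, differed by -0.07 and -0.08, and the activators Psme3 and Psme4 by 0.03 and -0.17, all with intervals that include 0.

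The immunoproteasome genes were highest in the CoQ10 group. All 5 were higher with CoQ10 than in wild type (median 0.29) and than in untreated mutants (median 0.25), and all 5 were lower with probucol than with CoQ10 (median -0.23). Against wild type the medians of untreated and probucol mutants were -0.04 and -0.06, with 2 of 5 genes higher, and probucol against untreated mutants had a median of 0.02. With single livers left out, the CoQ10 median ran from 0.20 to 0.33 against wild type and from 0.17 to 0.39 against untreated mutants, the last value without CoQ10 mutant 5. Probucol against CoQ10 was at -0.10 without CoQ10 mutant 4 and -0.13 without probucol mutant 2. The mean deviation of the class was 0.21 ± 0.16 log2 (SD, n = 5) with CoQ10, -0.04 ± 0.20 in wild type, -0.10 ± 0.25 untreated and -0.07 ± 0.20 with probucol. These spreads overlap, and no gene of the class passed the adjusted test.

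Psmb9, which replaces Psmb6, read 9.93, 10.70, 10.25, 10.44 and 9.92 with CoQ10 and 9.65, 9.99, 9.88, 9.09 and 9.28 with probucol. It read 10.60, 9.07, 9.78, 9.43 and 9.86 in wild type and 10.22, 9.70, 9.17, 10.20 and 9.23 in untreated mutants. Its wild-type livers alone spanned more than the CoQ10 and probucol means were apart. Probucol against CoQ10 was -0.67 ± 0.26 log2 (-1.22 to -0.12, adjusted p = 0.378), the largest difference of any kept member probe in the 6 comparisons. Psmb8, which replaces Psmb5, read 9.45, 8.99, 10.13, 10.15 and 9.53 with CoQ10 and 9.07, 9.36, 9.77, 9.46 and 9.78 in wild type by its brighter probe. It read 9.07, 8.49, 9.14, 10.10 and 9.29 in untreated and 9.24, 8.98, 10.01, 9.75 and 9.14 in probucol mutants. All 4 groups overlapped, and CoQ10 against untreated mutants was 0.43 ± 0.27 (-0.12 to 0.99), with 0.48 by the dimmer probe.

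Psmb10, which replaces Psmb7, read 11.74, 11.75, 11.36, 11.40 and 10.83 with CoQ10 and 11.51, 10.92, 11.23, 10.73 and 11.22 in wild type by its brighter probe. It read 11.64, 11.28, 10.99, 11.07 and 10.87 in untreated and 11.20, 11.43, 11.28, 11.12 and 10.83 in probucol mutants. CoQ10 mutant 5 was the lowest or joint lowest mutant liver by this probe, but not by the dimmer one, where it read 10.98. The CoQ10 difference from wild type was 0.29 ± 0.18 (limma adjusted p = 0.534), or 0.44 ± 0.18 by the dimmer probe (0.07 to 0.81, adjusted p = 0.274). The PA28 genes differed less. Psme1 ranged from 12.35 to 12.83 in wild type, 12.32 to 12.51 in untreated, 12.34 to 12.60 in probucol and 12.25 to 12.83 in CoQ10 livers, with a CoQ10 difference from wild type of 0.04 (-0.21 to 0.29). Psme2 ranged from 8.50 to 9.07, 8.53 to 9.33, 8.39 to 9.36 and 8.61 to 9.45 in the same order, with 0.29 (-0.13 to 0.71). Across livers, after removal of group means, Psmb10 went with Psmb9 (Pearson r 0.69) and Psme1 (0.65) and Psmb8 with Psme2 (0.93), whereas Psmb9 with Psmb8 had r -0.01. The class did not vary as 1 set from liver to liver. Within array numbers its CoQ10 median was 0.05 to 0.40 against untreated mutants, 0.06 to 0.68 against wild type, and -0.56 to -0.16 for probucol against CoQ10.

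Some members were called for array number, at a share near that of all probes. Given group, 6 of 59 member probes were called for array number (limma, 10.2%, against 7.27% of all probes). They were 2 probes of Psmb7 and 1 each of Psmb8, Psmd5, Psmd7 and Psme4. For Psmb7, Psmb8, Psmd7 and Psme4 the called probes were not the brightest of the gene. The brightest probes had adjusted p of 0.315, 0.0521, 0.473 and 0.405 in that order and test. The called Psme4 probe was detected on 6 arrays. All 6 called probes were lower on numbers 1 and 2 than on number 3. The Psmd7 probe, for a lid subunit, deviated from its group means by -0.30, -0.44, 0.53 and 0.20 log2 on numbers 1 to 4 (adjusted p = 0.0165), and a brighter Psmd7 probe by 0.10, 0.03, -0.08 and -0.05. Psme2, the partner of Psmb8 above, deviated by -0.14, -0.23, 0.32 and 0.06 and was not called. The median number of detected probes was 12519, 12910, 14414 and 13967 on numbers 1 to 4. Its part in these differences was not tested.

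**Figure D5:**
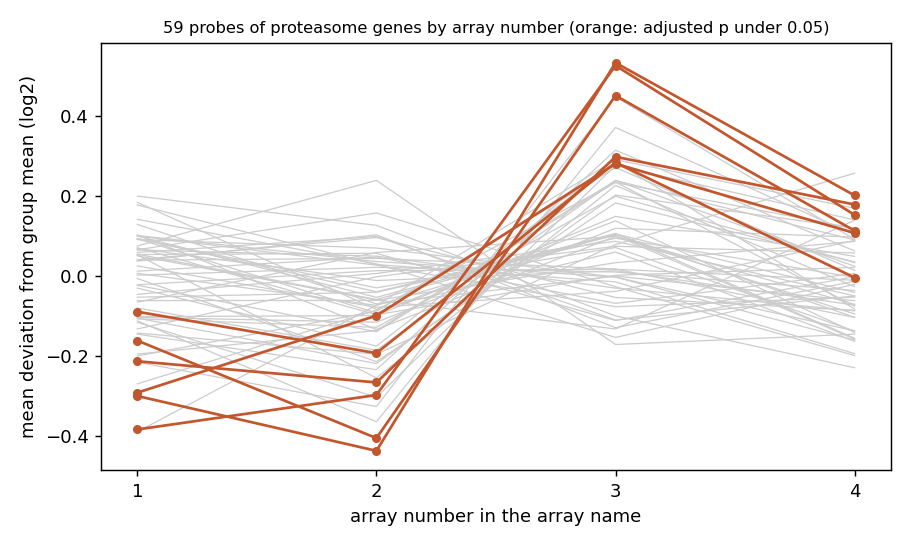
Mean deviation from the group means (log2) of each of the 59 kept proteasome probes on array numbers 1 to 4, with the 6 probes called for array number in orange. The orange lines are below 0 on numbers 1 and 2 and above 0 on number 3.

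Genes that work with the proteasome were read from lists. Of the 9 assembly and associated factors on the array 8 were kept and 0 were called. Their median difference from wild type was 0.12 in untreated mutants (6 of 8 higher), 0.14 in probucol mutants (5 of 8) and 0.03 in CoQ10 mutants (5 of 8). With CoQ10 the assembly chaperones Psmg3 and Psmg1 differed from wild type by 0.47 ± 0.12 (limma adjusted p = 0.0957) and 0.53 ± 0.16 (adjusted p = 0.140). Psmg3 differed by 0.16 in untreated and 0.21 in probucol mutants. Of the 9 genes for ubiquitin activation, shuttles and p97, 9 were kept and 0 called. Against wild type their median was -0.07 in untreated (2 of 9 higher), 0.02 in probucol (5 of 9) and -0.11 in CoQ10 mutants (3 of 9). Of the 10 transcription factor genes 7 were kept and 0 called, and all 7 were lower with CoQ10 than in wild type (median -0.19). In untreated mutants 6 of 7 were lower than in wild type (median -0.21), and in probucol mutants 4 of 7 (median -0.04). Nfe2l1 differed from wild type by -0.29 ± 0.18 untreated, -0.55 ± 0.18 with probucol (adjusted p = 0.179) and -0.39 ± 0.18 with CoQ10 (adjusted p = 0.332). Nfe2l1 RNA read below wild type in each mutant group and the core medians above it, in neither case beyond the test's threshold. The arrays do not measure the protein that Nfe2l1 encodes, and its part in the core differences was not tested.

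Around the immunoproteasome, 9 of 11 MHC class I loading genes were kept and 1 was called. Tapbp, which encodes tapasin, fell by 0.75 log2 with CoQ10 against wild type (SE 0.14, adjusted p = 0.0220), while 2 of the 9 were higher there (median -0.06). Of 18 interferon response genes 14 were kept and 0 called. Of these, 13 were higher with CoQ10 than in untreated mutants (median 0.23) and 12 than in wild type (median 0.31), and Isg15 had the smallest F-test p of the list, with 1.11 ± 0.32 against wild type (adjusted p = 0.119). The list's summed level was 13.13 to 13.65 log2 with CoQ10, 12.65 to 13.47 in wild type, 12.75 to 13.19 untreated and 12.86 to 13.34 with probucol. The immunoproteasome and interferon lists thus read highest in the same group.

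Kupffer cell and macrophage markers also read highest with CoQ10. Of 9 on the array 8 were kept, all 8 were higher with CoQ10 than in wild type (median 0.38), and 1, C1qa, rose (0.88 ± 0.17, adjusted p = 0.0189). Against wild type, 8 of 8 were also higher in untreated mutants (median 0.27) and 7 of 8 in probucol mutants (median 0.26). The immunoproteasome medians of those 2 groups were -0.04 and -0.06. The summed level of the macrophage markers was 13.60 to 14.00 log2 with CoQ10, 13.28 to 13.52 in wild type, 13.47 to 13.78 untreated and 13.58 to 13.73 with probucol. No endothelial or stellate marker was called (3 kept of each list). Of the 4 kept lymphocyte and leukocyte markers 0 were called, and their summed level was 10.11 to 10.33 log2 with CoQ10, 10.21 to 10.90 in wild type, 10.28 to 10.77 untreated and 9.92 to 11.05 with probucol. The CoQ10 livers were thus not the highest for that list. The part of macrophages, of interferon and of array number in the immunoproteasome differences was not tested.

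Of 5 biliary (cholangiocyte) markers 2 were kept, Krt23 and Sox9. Their summed level was 9.82 to 10.36 log2 in wild type, 8.78 to 9.29 untreated, 9.004 to 9.73 with probucol and 9.02 to 10.03 with CoQ10, so neither untreated nor probucol livers overlapped wild type. Krt23 fell by 1.94 log2 with probucol against wild type (adjusted p = 0.00678). In untreated mutants the differences from wild type were -1.03 ± 0.32 for Krt23 (adjusted p = 0.442) and -0.95 ± 0.25 for Sox9 (adjusted p = 0.238). Both markers were lower with probucol than in wild type (median -1.05), but only Krt23 was called. Against untreated mutants, 1 of the 2 was higher and 1 lower with probucol. Each had an unadjusted limma p under 0.05, and 0 were called. The 2 markers thus did not change alike with probucol. The part of biliary cells in the core differences was not tested.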

How the data were processed

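Liver RNA of 20 mice was measured on Illumina mouse arrays with 1 array per liver. The authors deposited non-normalized intensities and a detection value per probe, and a series table of log2 values with no statement, in what was read here, of how they were made. The deposited detection p-value column rises with intensity, so 1 minus it was used. Intensities were background-corrected with normexp from detection p (offset 16), quantile-normalised and log2-transformed with limma 3.58.1 in R 4.3.3. The 15096 probes with detection p under 0.05 on at least 5 arrays were fitted as 4 group means, with Benjamini-Hochberg adjustment over all of them, called under 0.05. The fit was tested on simulated data. Of all probes, 34885 carry 1 symbol, 18 several and 10378 none in the platform annotation, and 34807 matched the RefSeq table (GRCm38.p6). Probes of Psmc3ip and Psme3ip1 (4) were left out.

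Members and lists were chosen with earlier results of these data known. Each liver's values are given for Psmb5 to Psmb10, Psme1, Psme2 and the 6 further members of smallest 4-group F p (Psma2, Psme1, Psme2 and Psmb3 as ranges). From other lists up to 4 genes of smallest F p could be named. Psma4, Psmd8 and other members are named for the class they belong to. Alternatives were the background correction, scaling, the probe filter, the authors' log2 values, blocks for array or replicate number, groups by array name prefix, 2-group fits, and leaving out livers. Median over genes of a class is a description with no test. Groups held 5 livers each.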

Additional observations from a re-analysis of the deposited data

How the results depend on the processing

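No alternative made a proteasome probe pass the adjusted test in any comparison (160 counts of 0). The calls of 434 F tests of named members were as reported. So were the signs and calls of 227 differences of named members. Only differences with an unadjusted limma p under 0.05 in the main fit were followed in this way, so smaller differences may turn their sign. Of 540 class medians 15 moved by at least the pooled within-group SD of the class score (core 0.145, base 0.0918, lid 0.106, immunoproteasome 0.206). Smaller moves that turned a sign were not counted. The lid in untreated mutants against wild type kept its sign under 14 of 22 alternatives. The core in probucol against CoQ10 mutants did so under 13 of 23. In CoQ10 mutants against wild type the core, base and immunoproteasome did so under 21 of 21, and the lid under 17 of 21. Some alternatives kept the sign by construction. The replicate block and the 2-group fits cannot change a class median of any comparison. Grouping by array name prefix leaves the wild-type and CoQ10 livers as they were. With median scaling, which shifts the median of all probes by at most 0.08 log2, the base was at 0.0141 and the lid at 0.120 for probucol mutants against wild type, and the base at 0.123 for probucol against CoQ10 mutants. With groups taken from the array name prefix, the lid was at -0.0597 and the core at -0.0631 for probucol against untreated mutants; that prefix exchanges these 2 groups, so every class median of this comparison turns its sign by construction. Leaving out single livers gave -0.122 to 0.0902 for the lid in CoQ10 mutants against wild type, the upper value without CoQ10 mutant 4. Without untreated mutants 1 and 4 the lid was at -0.109 against wild type. Without probucol mutants 1, 2 and 4 the base was at -0.209 against untreated mutants, -0.272 against wild type and -0.115 against CoQ10. With array number as a block and without all 5 of these livers, an alternative chosen after seeing the data, the base was at -0.207, -0.252 and -0.122 in those comparisons. There the immunoproteasome was at 0.235 for probucol and 0.454 for CoQ10 against untreated mutants, and the core at 0.245 for CoQ10 against untreated mutants. The cause of these moves was not tested. Replicate numbers do not pair the livers: 17 of 30 same-number pairs correlated above 0.1, and 3 of 20 livers correlated best with a liver of their own number. With the replicate block 0 members were called. Every group holds each replicate number alike, so that block cannot change the group differences. The core median of untreated mutants against wild type thus stayed at 0.125 by construction. Probes near background, such as those of Psmc6, limit what their differences can show.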
